A study of Mus musculus with 11 samples.

Results

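The phagocyte NADPH oxidase was followed through 5 of its subunit genes, Cybb, Cyba, Ncf1, Ncf4 and Rac2, in laser-microdissected adventitia of the mouse abdominal aorta. All probe sets whose only gene symbol in the array annotation is one of these names were taken, which gave 6 of the 22690 probe sets deposited and 5 of the 12393 genes named on one: 1 each for Cybb, Cyba, Ncf4 and Rac2 and 2 for Ncf1. No measured value entered the step from gene names to probe sets, but the 5 genes were chosen with earlier results of these data known. The adventitia is the outer connective tissue layer of an artery. In aged Apoe-deficient mice it can hold artery tertiary lymphoid organs (ATLOs), aggregates of lymphocytes and other leukocytes next to atherosclerotic plaques.

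There were 11 arrays of 3 groups, all from male mice of 78 weeks kept on normal chow. The ATLO group had 4 arrays of adventitia that contained ATLOs within the lesion area of Apoe-deficient mice (strain B6.129P2-Apoe<tm1Unc>/J). The outside-lesion group had 4 arrays of adventitia of the same strain away from the lesion area; the tissue label says so, whereas the design text speaks of mice without lesions. The wild-type group had 3 arrays of adventitia from C57BL mice. Apoe is disrupted in the germline of the mutant strain. Each Apoe-deficient sample pooled 200 sections of 10 µm. ATLO tissue was chosen for its lymphoid aggregates, so that a higher level of leukocyte genes and the choice of tissue cannot be told apart. Apoe-deficient and wild-type samples also differed in the RNA extraction kit and in the time of in vitro transcription (68 h against 24 h), so genotype and these steps cannot be told apart. No label says that the arrays of a group came from separate mice, or whether ATLO and outside-lesion samples came from the same mice, so the p-values rest on the variation among these arrays alone, part or all of which could be technical.

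The phagocyte NADPH oxidase moves electrons from NADPH in the cytosol across a membrane to oxygen and so makes superoxide, which kills engulfed microbes and also acts as a signal. Its catalytic core in the membrane is cytochrome b558, the pair of gp91phox (Cybb) and p22phox (Cyba). In resting cells p47phox (Ncf1) and p40phox (Ncf4) wait in the cytosol. On stimulation they move to the membrane together with a GTP-loaded Rac protein and switch the core on. Neutrophils and macrophages carry the enzyme at high levels, and B cells and dendritic cells carry it too. Rac2 is made across the blood cell lineages, T cells included, and Cyba also serves other NADPH oxidases outside the blood. Loss of CYBB, CYBA, NCF1 or NCF4 in people causes chronic granulomatous disease. In the artery wall, superoxide from these enzymes is known to oxidise lipoproteins and to consume nitric oxide.

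PU.1 (Spi1) and interferon regulatory factors are known to drive several of these genes in myeloid cells, so the promoters of the subunits were searched for the letters of their core motifs. RefSeq promoters of GRCm38.p6, from 250 bases before to 50 bases after the start of the gene, were given for 3 of the 5 members. They are shown 5′ to 3′ on the strand of the gene, with 2 motifs in capitals, each searched on both strands: GAGGAA (read as TTCCTC on the other strand), the core of PU.1 sites, and GAAA (read as TTTC), the core of interferon regulatory factor sites. In Cybb the 2 motifs overlap at their shared letters. The intervals are chrX:9469275-9469574 for Cybb, chr8:122432891-122433190 for Cyba and chr5:134229576-134229875 for Ncf1, all on the minus strand.
Cybb: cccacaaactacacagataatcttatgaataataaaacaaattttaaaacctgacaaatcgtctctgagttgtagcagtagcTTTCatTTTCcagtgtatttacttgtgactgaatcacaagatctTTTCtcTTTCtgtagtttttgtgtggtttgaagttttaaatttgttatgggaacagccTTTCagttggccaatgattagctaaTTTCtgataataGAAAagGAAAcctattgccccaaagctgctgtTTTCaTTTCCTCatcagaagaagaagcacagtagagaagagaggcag
Cyba: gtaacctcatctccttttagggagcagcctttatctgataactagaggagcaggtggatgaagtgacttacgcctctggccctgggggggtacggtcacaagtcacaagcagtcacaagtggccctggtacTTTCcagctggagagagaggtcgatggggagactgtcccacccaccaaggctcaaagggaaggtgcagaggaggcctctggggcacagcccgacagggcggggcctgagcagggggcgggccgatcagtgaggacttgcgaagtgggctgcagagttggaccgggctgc
Ncf1: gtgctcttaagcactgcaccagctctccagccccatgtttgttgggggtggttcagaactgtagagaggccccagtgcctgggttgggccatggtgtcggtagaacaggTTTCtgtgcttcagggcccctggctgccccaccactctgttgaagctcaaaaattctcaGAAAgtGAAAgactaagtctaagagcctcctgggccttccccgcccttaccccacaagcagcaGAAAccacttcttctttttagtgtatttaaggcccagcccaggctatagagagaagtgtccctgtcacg

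GAGGAA was found once, on the reverse strand, in the Cybb window, beginning 10 bases after the start, and was at 0 matches in the Cyba and Ncf1 windows. Of 32851 promoters of the same length, 28.3% held it. GAAA had 10 matches in Cybb, 4 in Ncf1 and 1 in Cyba; 89.2% of promoters held at least 1, and 0.858% held as many as Cybb. The shorter core of the Ets family to which PU.1 belongs, GGAA, had 4 matches in Cybb, 2 in Cyba and 1 in Ncf1, and 96.0% of promoters held it. GAGGAA contains GGAA, so these counts overlap. The Cybb window is rich in A and T, with 35.3% G and C against a median of 52.7% over all promoters. A match of letters is a description of the sequence and not a measured binding site.

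All values are the authors' array signals, in linear units without a physical scale, with each array scaled to the same average. Array medians lay between 170.8 and 187 in ATLO, 152 and 173 outside the lesion and 179.8 and 191 in wild type. Apoe itself was read at 86.9 to 150.2 in ATLO, 45.9 to 179.7 outside the lesion and 11969 to 13164 in wild type, so all 11 arrays matched their genotype label. The actin control has probes at its 3′ and 5′ ends, and the ratio of their signals (3′ over 5′), higher in more degraded RNA, was 1.71 to 8.14 in ATLO, 6.22 to 11.99 outside the lesion and 4.19 to 5.40 in wild type. Of the macrophage markers, 12 of 12 were measured, and the sum of their signals was 34200.3 to 50252 in ATLO, 14388 to 25606 outside the lesion and 19675 to 26743 in wild type. Markers of the connective tissue expected in adventitia were present: all 5 fibroblast markers passed the filter, with sums of 37560 to 69533 in ATLO, 19492 to 47705 outside the lesion and 33491 to 37239 in wild type. The number of arrays limits the precision of every value.

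Adventitia with ATLOs was first compared with adventitia of the same genotype outside the lesion, to ask how the oxidase genes stood where lymphoid aggregates had formed. All 5 subunit genes rose in ATLO. In the fitted means the rise was 5.72-fold for Ncf4, 5.84-fold for Rac2, 3.42-fold for Cyba and 2.59-fold for Cybb. For Ncf1 it was 4.20-fold, a value that moves with the floor set for low signals, so that Ncf1 has no fixed place among them. By limma at a Benjamini-Hochberg adjusted p under 0.05, 5 of the 5 probe sets tested were higher. Of all 14988 probe sets tested, 31.9% were called, 17.9% as higher and 13.9% as lower. Ncf1 passed the filter on low signals through its ATLO arrays alone, and Cybb through these and 1 array of each other group, so the count is a description and not support. The median log2 change of the members tested was 2.07, beside 0.10 over all probe sets tested. Signal ranges of the 4 ATLO and the 4 outside-lesion arrays did not overlap for any of the 6 probe sets, ATLO being higher, which held for 17.2% of all probe sets tested.

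**Figure D1:**
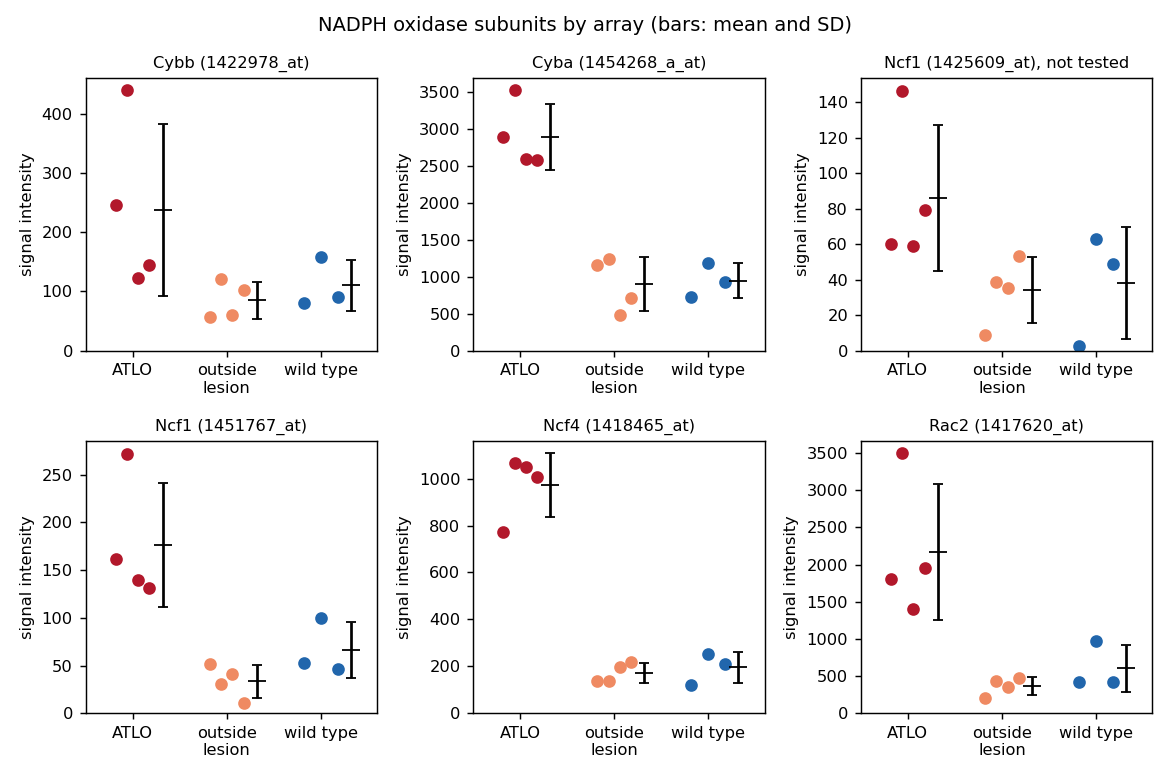
Signal intensity (linear axis from 0) of the 6 subunit probe sets on each array, with ATLO, outside-lesion and wild-type arrays from left to right; points are arrays and the black bar beside each group is its mean and SD. All 4 ATLO arrays lie above all 4 outside-lesion arrays in each panel, by the smallest margin for Cybb (122 against 120.4), and ATLO replicate 2 is the highest array throughout.

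Cybb encodes gp91phox, which carries the haem and flavin groups through which the electrons pass. Its signal (probe set 1422978_at) was 245, 440.2, 122 and 144 on the 4 ATLO arrays, 56.6, 120.4, 60.3 and 102 on the 4 outside-lesion arrays and 80.6, 159 and 91.4 on the 3 wild-type arrays. The ATLO arrays spread widely, replicate 2 being the highest of all, and the lowest ATLO array was barely above the highest outside-lesion array, 122 against 120.4. The mean was 238 ± 145 (SD, n = 4) in ATLO and 84.9 ± 31.5 (SD, n = 4) outside the lesion, with a log2 change of 1.38 ± 0.41 (SE, adjusted p = 0.0214). The call was lost without ATLO replicate 1 (adjusted p = 0.0543), ATLO replicate 2 (0.0710), outside-lesion replicate 1 (0.0590) or outside-lesion replicate 3 (0.0581), and with no filter on dim probe sets (0.0661). In each of the 3 groups the array with the lowest actin ratio, replicate 2 each time, had the highest Cybb signal. With that ratio as a covariate the log2 change was 0.47 ± 0.37 (adjusted p = 0.440).

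Cyba encodes p22phox, which stabilises gp91phox and holds the docking site for p47phox. Its signal (probe set 1454268_a_at) was 2880.3, 3525, 2585 and 2569 in ATLO, 1153, 1245, 482 and 713 outside the lesion and 722, 1187 and 926 in wild type. ATLO arrays were tightly grouped and the lowest of them was at 2.06 times the highest outside-lesion array. The mean was 2889.8 ± 447 (SD, n = 4) in ATLO and 898 ± 362 (SD, n = 4) outside the lesion. The log2 change was 1.77 ± 0.27 (adjusted p = 2.62e-04). As for Cybb, the array with the lowest actin ratio had the highest Cyba signal in all 3 groups. With the ratio as a covariate the log2 change of Cyba was 1.44 ± 0.33 (adjusted p = 0.0106).

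Ncf1 encodes p47phox, the organiser that is phosphorylated on stimulation and then carries the cytosolic complex to p22phox. The probe set tested (1451767_at) read 162, 272, 140.1 and 132 in ATLO, 51.5, 30.9, 41.2 and 11.4 outside the lesion and 53.1, 100.1 and 46.7 in wild type. Outside the lesion and in wild type, 0 of 7 arrays stood above their own 40th percentile, the level used by the filter, so that the probe set entered the test through its ATLO arrays. Outside-lesion replicates 2 and 4 lay under the floor of 35.1 to which low signals were raised. The log2 change of 2.07 ± 0.35 (adjusted p = 5.66e-04) therefore depends on that floor, being 2.52 with a floor at the 10th percentile of all values and 1.37 with one at the 30th. The other Ncf1 probe set (1425609_at) was too dim for the test. It read 59.9, 146, 59.0 and 79.2 in ATLO, 8.9, 39.0, 35.3 and 53.4 outside the lesion and 2.7, 63.0 and 48.6 in wild type, again with every ATLO array above every outside-lesion array. Fitted with no filter, its log2 change was 0.997 ± 0.31 (adjusted p = 0.0547).

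Ncf4 encodes p40phox, whose PX domain binds phosphatidylinositol 3-phosphate and sustains the oxidase at the phagosome. It read 773, 1067, 1047 and 1008 in ATLO (probe set 1418465_at), 137, 137, 199 and 218 outside the lesion and 121, 254 and 212 in wild type. The groups were far apart, the lowest ATLO array standing at 3.54 times the highest outside-lesion array. The mean was 974 ± 136 (SD, n = 4) in ATLO and 173 ± 42.0 (SD, n = 4) outside the lesion, with a log2 change of 2.52 ± 0.25 (adjusted p = 1.90e-05). ATLO replicate 3, with the highest actin ratio of its group, read close to replicate 2, with the lowest. With the ratio as a covariate the log2 change was 2.42 ± 0.32 (adjusted p = 8.91e-04).

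Rac2 encodes the blood-cell Rac GTPase that, loaded with GTP, helps to start electron transfer. It read 1812, 3493, 1409 and 1958 in ATLO (probe set 1417620_at), 204, 430.2, 355 and 482 outside the lesion and 421, 973 and 423 in wild type. Every ATLO array was at least 2.92 times the highest outside-lesion array, and ATLO replicate 2 and wild-type replicate 2 stood above the rest of their groups. The mean was 2168 ± 913 (SD, n = 4) in ATLO and 368 ± 121 (SD, n = 4) outside the lesion, with a log2 change of 2.55 ± 0.34 (adjusted p = 1.13e-04). With the actin ratio as a covariate it was 1.81 ± 0.32 (adjusted p = 0.00291).

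The actin ratio itself averaged 4.61 ± 2.71 (SD, n = 4) in ATLO and 8.71 ± 2.83 (SD, n = 4) outside the lesion, a difference that did not pass the exact permutation test (two-sided, arrays permuted, p = 0.114). Its own part in the results was not tested beyond the covariate fit. With that covariate 4 of the 5 tested members remained called, all but Cybb. Of all 14988 probe sets 2552 were called with it, 1290 of them as higher.

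**Figure D2:**
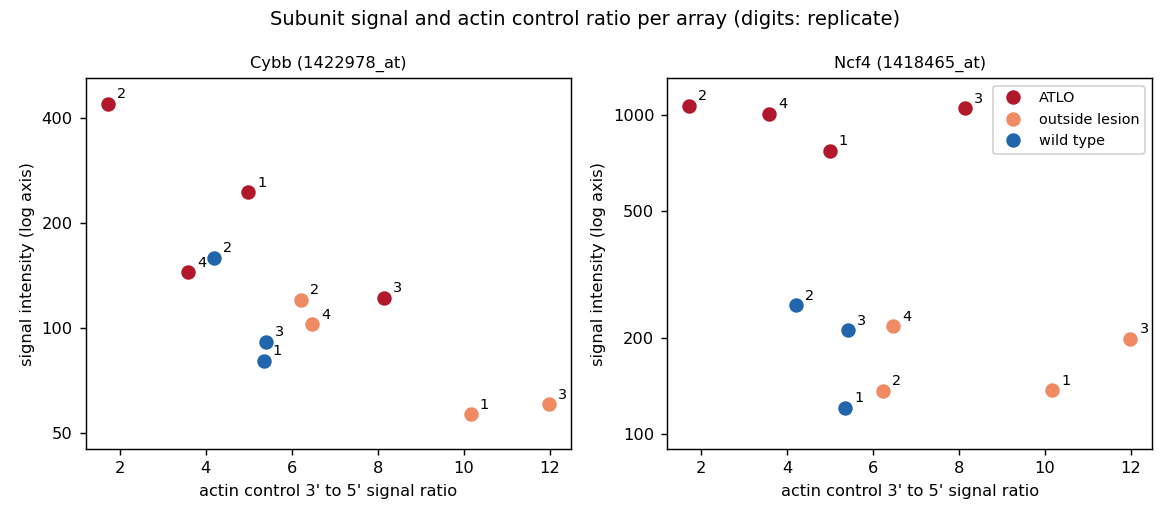
Signal intensity (log axis) of Cybb on the left and Ncf4 on the right against the actin ratio (3′ over 5′ signal), 1 point per array with its replicate number. The highest Cybb signal of each group lies on its array with the lowest ratio. The highest Ncf4 signal does so in ATLO and wild type but not outside the lesion. The 4 ATLO arrays stay between 773 and 1067 for Ncf4 across ratios of 1.71 to 8.14.

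Markers of most leukocyte types were higher on the same arrays, while mast cell markers were not. Of 5 mast cell markers 3 were called lower and 0 higher in ATLO against outside-lesion adventitia (median log2 change -0.94). With the actin ratio as a covariate 0 of them were called. Of the 5 fibroblast markers 4 were called higher in that comparison, with a median of 1.49. In ATLO against outside-lesion adventitia, 9 of 12 macrophage markers were called higher and 0 lower, with a median log2 change of 1.24. Mpeg1, the pore-forming protein of macrophages, changed by 2.73 and Cd68 by 1.88, while Csf1r, the receptor for macrophage colony-stimulating factor, changed by 0.37 and did not pass (adjusted p = 0.260). All 5 tested B cell markers, all 6 tested T cell markers and all 5 pan-leukocyte markers rose, with median log2 changes of 2.85, 2.45 and 2.69. With the actin ratio as a covariate, 3 of the 5 B cell markers, 5 of the 6 T cell markers and 5 of the 5 pan-leukocyte markers were called, with medians of 1.91, 2.05 and 2.37. Of the dendritic cell markers 4 of 5 tested rose. Of the neutrophil markers 2 of 5 tested rose, S100a8 and S100a9, which monocytes make as well; the granule peptide gene Camp and the chemokine receptor gene Cxcr2 lay at the floor on all arrays. Of the neutrophil calls 1 was left with equal array medians, with quantile normalization and with a replicate block, and 0 with the actin ratio as a covariate. The neutrophil sum was 2026.0 to 3430 in ATLO, 714 to 1942 outside the lesion and 644 to 1644 in wild type. In bulk tissue, fewer cells of a type and less RNA per cell cannot be told apart, and the part of cell number in the subunit changes was not tested.

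Against wild-type adventitia, which asked how ATLO tissue stood beside the wild-type artery, 4 of the 5 subunits tested rose and Cybb did not pass the test. The background was 26.8% of probe sets called, 13.4% as higher and 13.4% as lower, and the median log2 change of the members was 1.63 beside -0.05 over all probe sets. Ncf4 changed most, averaging 974 ± 136 (SD, n = 4) in ATLO and 196 ± 67.8 (SD, n = 3) in wild type, with a log2 change of 2.37 ± 0.26 (adjusted p = 1.02e-04). Rac2 had means of 2168 ± 913 and 606 ± 318 in ATLO and wild type (log2 change 1.87 ± 0.37, adjusted p = 0.00290), and Cyba had 2889.8 ± 447 and 945 ± 233 (log2 change 1.63 ± 0.29, adjusted p = 0.00157). Ncf1 averaged 176 ± 64.9 in ATLO and 66.6 ± 29.2 in wild type, with a log2 change of 1.43 ± 0.38 (adjusted p = 0.0140). Its call was lost without wild-type replicate 1 (adjusted p = 0.0558) or replicate 3 (0.0645) and with the floor at the 10th percentile (0.0728). Cybb averaged 238 ± 145 in ATLO and 110.3 ± 42.5 in wild type, with a log2 change of 0.99 ± 0.45 (adjusted p = 0.118), and wild-type replicate 2 lay above ATLO replicates 3 and 4. The ranges did not overlap for 4 of the 6 probe sets, against 17.3% of all probe sets tested with ATLO higher. Macrophage markers were called higher for 6 of 12 and lower for 0.

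Outside-lesion and wild-type adventitia were set against each other to ask whether the oxidase genes differed away from the aggregates. None of the 5 subunits tested was called by limma, 0 reached an unadjusted p under 0.05, and 0 of 6 had ranges apart in either direction. Of all probe sets 3.26% were called (1.72% higher and 1.54% lower) and 22.7% had an unadjusted p under 0.05. While 8.15% lay wholly higher outside the lesion, the share wholly lower was not counted. The 0 of 6 therefore has no full background. All 5 estimates were below 0 with a median of -0.39, beside -0.11 over all probe sets. Rac2 changed by -0.67 ± 0.37 (adjusted p = 0.291), Ncf1 by -0.64 ± 0.38 (0.323) and Cybb by -0.39 ± 0.45 (0.632). The Ncf1 value was -1.10 with the floor at the 10th percentile and -0.20 with the floor at the 30th. Ncf4 and Cyba changed by -0.14 ± 0.26 (0.775) and -0.14 ± 0.29 (0.798). The signs of Cyba, Ncf4 and Cybb turned under some other settings, so no direction is given for them. With standard errors of 0.26 to 0.45, a change of the size of these errors in either direction was not detectable with these arrays. ATLO had the highest mean for every subunit, while for Cybb its difference from wild type, and for all 5 the difference between outside-lesion and wild-type adventitia, did not pass the test. The 3 comparisons share arrays and are not independent of each other.

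**Figure D3:**
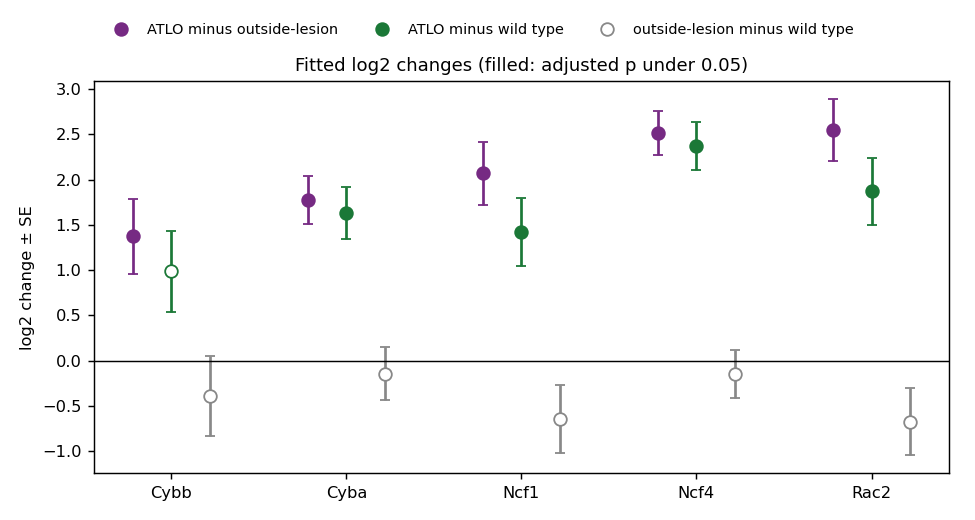
Fitted log2 change with its standard error for the 5 tested subunit probe sets in the 3 comparisons; filled points have an adjusted p under 0.05. Changes in ATLO lie between 0.99 and 2.55, and changes of outside-lesion against wild-type adventitia between -0.67 and -0.14, with none called.

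Whether the subunits changed by unequal amounts was measured on each array as the difference of the log2 signals of 2 subunits, whose level has no meaning across probe sets but whose change between groups does. For 10 pairs in 3 comparisons, 30 exact two-sided permutation tests were made, and 0 passed after Benjamini-Hochberg adjustment. Only 1 reached the smallest p that the design allows, 0.0286. It was Cybb minus Rac2, at -3.29 ± 0.42 (SD, n = 4) in ATLO and -2.12 ± 0.35 (SD, n = 4) outside the lesion, a difference of -1.17 (exact permutation p = 0.0286, adjusted p = 0.343). The 4 arrays of each group did not overlap in this measure. Cybb minus Ncf4 differed by -1.14 with overlapping arrays (exact permutation p = 0.143). Between ATLO and wild type, Cybb minus Ncf4 differed by -1.38 and Cybb minus Rac2 by -0.89, both without overlap (exact permutation p = 0.0571 and adjusted p = 0.343 for each). Ncf4 minus Rac2 differed by -0.03 (exact permutation p = 0.914), with SDs of 0.54 in ATLO and 0.47 outside the lesion. For an adjusted p to pass, 18 of the 30 tests would have had to reach the smallest p.

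Each subunit was also set against the mean log2 signal of the 12 macrophage markers on the same array, which was itself 1.19 higher in ATLO than outside the lesion (10.52 ± 0.25 and 9.33 ± 0.29, SD, n = 4 each). Relative to these markers Cybb stood at -2.78, -1.55, -3.83 and -3.10 in ATLO and at -3.69, -2.58, -2.98 and -2.74 outside the lesion. These ranges overlapped widely, with a difference of 0.18 (exact permutation p = 0.857, adjusted p = 0.886). Ncf4 stood at -1.13, -0.27, -0.73 and -0.30 in ATLO and at -2.42, -2.39, -1.26 and -1.65 outside the lesion, with no overlap. Its difference was 1.32, and that of Rac2 was 1.35, also with no overlap; each had the smallest exact permutation p possible, 0.0286, and an adjusted p of 0.143 over 15 tests. Cyba and Ncf1 differed by 0.58 and 0.88 (exact permutation p = 0.143 and 0.0571). Against wild type, Ncf4 relative to the macrophage markers differed by 1.51 (exact permutation p = 0.0286, adjusted p = 0.143) and Cybb by 0.13 (0.857, adjusted p = 0.886). Rac2 differed by 1.02 with overlapping arrays (exact permutation p = 0.143, adjusted p = 0.306), and Cyba by 0.77 without overlap (0.0571, adjusted p = 0.171). Ncf1 differed by 0.57 with overlap (0.371, adjusted p = 0.696). None of the 15 tests passed the adjustment, for which 9 of them would have had to reach the smallest p. The list mixes markers that rose with markers such as Csf1r, Cd163 and Mertk that did not pass, and lymphocyte and other leukocyte RNA was higher in ATLO at the same time.

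**Figure D4:**
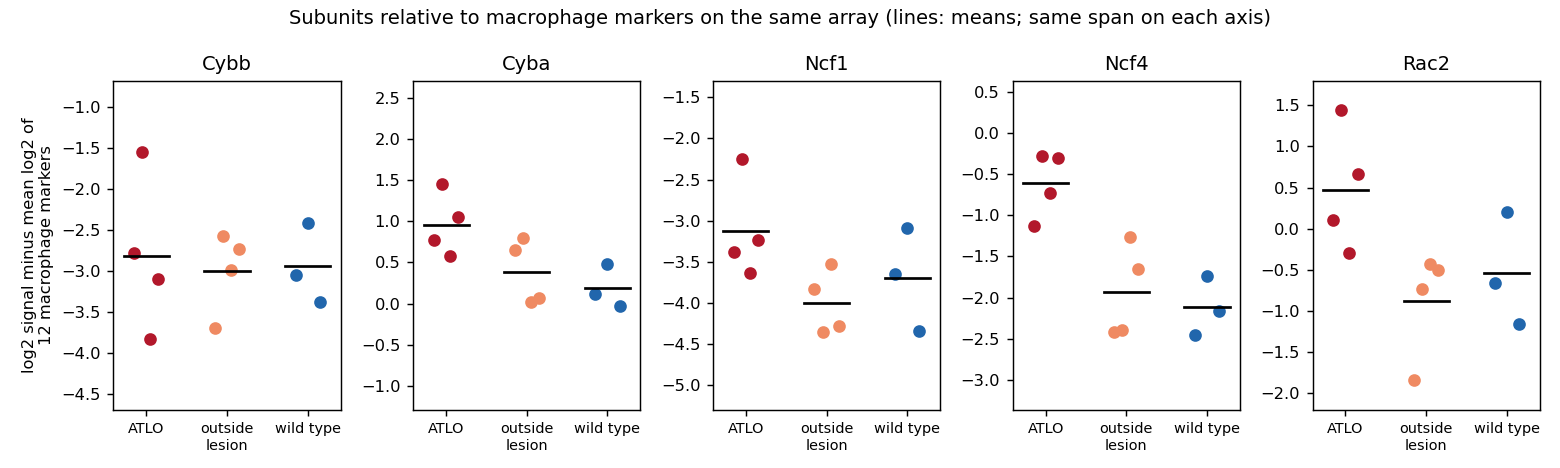
Log2 signal of each subunit minus the mean log2 signal of 12 macrophage markers on the same array, by group from ATLO on the left to wild type on the right; points are arrays, lines are means, and each axis spans the same range. Ncf4 and Rac2 lie higher in ATLO than outside the lesion on every array, by 1.32 and 1.35 in the means, and Cybb differs by 0.18.

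The other parts of the enzyme and the related oxidases formed a list of 11 genes, of which 4 were tested. Cybc1 and Rap1a rose in ATLO against outside-lesion adventitia, and 0 fell. Cybc1, the chaperone that gp91phox and p22phox need in order to mature, read 924, 1573, 1139.5 and 972 in ATLO and 553, 526, 477 and 440.5 outside the lesion. No array overlapped between the groups (log2 change 1.18 ± 0.17, adjusted p = 2.11e-04). Rap1a, a small GTPase that copurifies with cytochrome b558, changed by 0.82 ± 0.15 (adjusted p = 8.36e-04), although its other probe set, at 0.58, did not pass. Rac1, the widely expressed relative of Rac2, averaged 3201 ± 167 in ATLO and 2712 ± 389.95 outside the lesion on its brightest probe set (log2 change 0.25 ± 0.14, adjusted p = 0.201); another Rac1 probe set was called at 0.48 (adjusted p = 0.0209). Nox4, the constitutively active oxidase of vascular and connective tissue cells, which also pairs with p22phox, changed by 0.43 ± 0.29 in ATLO against outside-lesion adventitia (adjusted p = 0.298).

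Against wild type, Nox4 fell in both Apoe-deficient groups. It read 225, 208, 323 and 272 in ATLO, 281, 298, 118 and 128 outside the lesion and 552, 581 and 596 in wild type, so that no mutant array reached a wild-type array. The log2 change was -1.19 ± 0.32 in ATLO (adjusted p = 0.0147) and -1.61 ± 0.32 outside the lesion (adjusted p = 0.0248). Extraction and amplification differed between these groups too, and the call outside the lesion was not made on the other Nox4 probe set (adjusted p = 0.0736) and was lost with the actin ratio as a covariate and with a replicate block. Of the smooth muscle markers, 4 of 5 were called lower than in wild type in ATLO (median log2 change -1.34) and 0 of 5 outside the lesion (median -0.83). The ATLO count ranged from 1, with the actin covariate or a replicate block, to 5 with quantile normalization. Their summed signal was 10701 to 29462 in ATLO, 18272 to 56975 outside the lesion and 37921 to 42227 in wild type, and its part in the Nox4 change was not tested. Genes of this list without a probe set of their own were not analysed here.

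The activation list held exchange factors, kinases, lipid enzymes, the inhibitor Arhgdib and the proton channel Hvcn1. Of its 19 tested genes 13 rose in ATLO against outside-lesion adventitia and 0 fell, with a median log2 change of 0.96. Over all probe sets 17.9% were called higher and 13.9% lower in that comparison. Vav1, the blood-cell exchange factor that loads Rac with GTP, changed by 2.93 ± 0.30 (adjusted p = 2.20e-05), with 335, 545, 313 and 468 in ATLO and 49.8, 43.1, 45.3 and 82.3 outside the lesion. Dock2, another blood-cell Rac exchange factor, changed by 2.30 ± 0.25, Pik3cg, the phosphoinositide 3-kinase below G protein-coupled receptors, by 2.18 ± 0.26, and Syk, the kinase of antigen and Fc receptors, by 2.13 ± 0.16. These genes also act in lymphocytes, whose markers rose with them. Against wild type 9 of 19 rose, led by Vav1 (3.27 ± 0.32), Dock2 (2.50 ± 0.27), Pik3cg (1.88 ± 0.28) and Pik3cd (1.75 ± 0.18), and 1 fell, the exchange factor gene Tiam1 (-0.55, adjusted p = 0.0486), whose call was lost with equal array medians, with the actin ratio as a covariate and with a replicate block. With the actin ratio as a covariate 9 of the 19 were called higher against outside-lesion adventitia. Between outside-lesion and wild-type adventitia 0 of 19 were called, where only 3.26% of all probe sets were.

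Of 9 transcription factors of the subunit genes that were tested, 4 rose and 2 fell in ATLO against outside-lesion adventitia. Over all probe sets 17.9% were called higher and 13.9% lower there, and 2 of 9 is a count too small to set apart from that share. Spi1, which encodes PU.1, read 452, 447, 580.4 and 567 in ATLO and 191, 178, 198 and 169.6 outside the lesion, with no overlap (log2 change 1.47 ± 0.17, adjusted p = 4.88e-05). Irf8, an interferon regulatory factor of myeloid and B cells, averaged 1809 ± 449.97 in ATLO and 284 ± 84.9 outside the lesion, with a log2 change of 2.69 ± 0.31. The other 2 that rose were Irf1 and Elf1. Hoxa9, a homeobox factor of blood progenitors that is also made outside the blood, fell by 1.73 and Cebpa, a factor of myeloid and fat cells, by 1.45 on the log2 scale. Of 6 tested adipocyte markers 5 fell in the same comparison. With the actin ratio as a covariate 3 transcription factors were called higher and 2 lower, and 2 of the 6 adipocyte markers were called lower. Against wild type again 4 rose and 2 fell, beside 13.4% of all probe sets called higher and 13.4% lower. Irf8 was at 2.25 ± 0.34, Hoxa9 at -1.47 ± 0.30, Elf1 at 1.11 ± 0.25 and Spi1 at 1.01 ± 0.19.

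The redox list held enzymes that use or remove superoxide and hydrogen peroxide, with nitric oxide synthases, suppliers of NADPH and regulators of the antioxidant response. Of 23 tested, 1 rose, 8 fell and the other 14 did not pass in ATLO against outside-lesion adventitia, with a median log2 change of -0.38. Over all probe sets 17.9% were called higher and 13.9% lower in that comparison. Sod2, the mitochondrial superoxide dismutase, read 3773, 3312, 4345 and 4132 in ATLO and 13164, 5538, 15261 and 16275 outside the lesion. The groups did not overlap (log2 change -1.58 ± 0.29, adjusted p = 0.00111). Gpx4, which reduces lipid peroxides, changed by -1.46 ± 0.22 and Prdx3, the mitochondrial peroxiredoxin, by -1.46 ± 0.17. Prdx4, the peroxiredoxin of the endoplasmic reticulum, was the gene that rose (log2 change 1.51 ± 0.30, adjusted p = 0.00198), although 1 of its 3 probe sets was not called. Cat, Txnrd2, Sod1, Pgd and Nos3 fell as well, although the other tested Txnrd2 probe set, at -0.84, was not called by limma (adjusted p = 0.248). Of the endothelial markers 3 of 5 were called lower in the same comparison, Kdr, Tek and Cdh5 (median log2 change -0.98), and their summed signal was 2047 to 3371 in ATLO, 3622 to 9643 outside the lesion and 3317 to 4664 in wild type. The sum of the adipocyte markers was 23792 to 69040.0 in ATLO, 115176 to 196723 outside the lesion and 65919 to 89474 in wild type, and the part of either list in these changes was not tested. The inducible nitric oxide synthase gene Nos2 lay at the floor on all arrays.

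Against wild type 1 redox gene rose and 3 fell in ATLO, namely Prdx4 (1.09 ± 0.33), Pgd (-1.31 ± 0.34), Prdx3 (-1.04 ± 0.19) and Nos3, the endothelial nitric oxide synthase gene (-0.75 ± 0.23). Over all probe sets 13.4% were called higher and 13.4% lower in this comparison. By the brightest probe sets these shares of 23 are not above that background, but the count of lower genes depends on this choice. With quantile normalization 7 were called lower. By limma, other probe sets of Sod2 (-1.30, adjusted p = 0.0101), Gpx4 (-0.93, 0.00797) and Cat (-0.70, 0.00842) were called lower against wild type. Other probe sets of Pgd (-0.66, adjusted p = 0.148) and Prdx4 (0.06, 0.866) were not called. Pgd makes NADPH in the pentose phosphate pathway. Outside the lesion 2 rose against wild type, the catalase gene Cat (1.09 ± 0.20, adjusted p = 0.0220) and Txnrd2 (0.89 ± 0.22, adjusted p = 0.0482). The other tested Txnrd2 probe set was not called by limma there, at -0.30 (adjusted p = 0.783). With the actin ratio as a covariate 0 redox genes were higher and 7 lower in ATLO against outside-lesion adventitia, and 0 were called between outside-lesion and wild-type adventitia. With all arrays set to the same median, 1 was higher and 12 were lower in ATLO against outside-lesion adventitia.

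**Figure D5:**
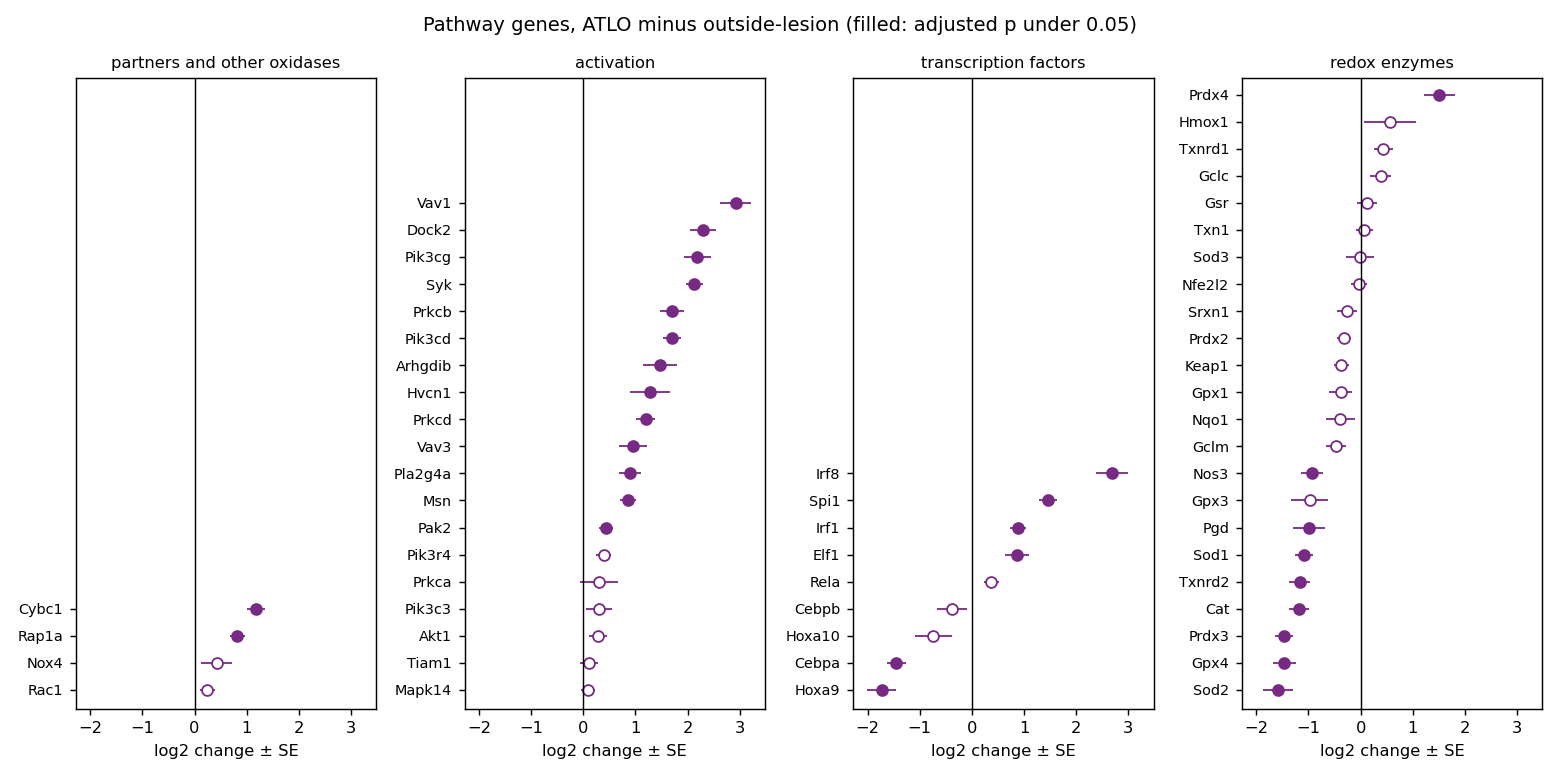
Log2 change with its standard error, ATLO minus outside-lesion, of each tested gene in the 4 pathway lists; filled points have an adjusted p under 0.05. Of the activation genes 13 of 19 are filled and lie above 0, and of the redox genes 8 of 23 are filled below 0 and 1, Prdx4, above.

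The genes whose log2 signals followed each subunit most closely over the 11 arrays differed between subunits. These correlations follow the group means in part, since all arrays share the 3 groups, and are given as a description. Within groups, single arrays enter them too. Replicate 2, with the lowest actin ratio of its group, was the highest array for Rac2, Gimap7, Cybb and Npm1 in ATLO and in wild type. Mndal was highest on replicate 4 in ATLO. The part of the actin ratio in the correlations was not tested. Rac2 was most like Gimap7, a GTPase gene of lymphocytes (Pearson r = 0.994, n = 11 arrays, and 0.973 for deviations from the group means), followed by Cyrib, Nkg7, Tnfrsf13b and Fcrla. Tnfrsf13b and Fcrla are B cell genes and Nkg7 is a gene of cytotoxic lymphocytes. Ncf4 was most like Mndal (r = 0.991, within groups 0.901), followed by H2-Ab1 and Ifi30, which serve antigen presentation on MHC class II, and by Birc2 and Capza1. Ncf1 was most like Il2rb, a chain of the interleukin-2 receptor (r = 0.986, within groups 0.908), then Cd5, Sash3, Rap1a and Gstp3. Outside the lesion Il2rb read 62.7, 16.2, 21.3 and 8.7 and Gstp3 3.6, 5.7, 26.4 and 28.3, mostly under the floor of 35.1. Ncf1 was under it on 2 of these arrays, so shared floor values enter these correlations. The other Il2rb probe set changed by 0.43 in ATLO against outside-lesion adventitia and was not called by limma (adjusted p = 0.587). Cyba was most like Plek, the pleckstrin gene of platelets and leukocytes (r = 0.986, within groups 0.949), then Sirpa, an inhibitory receptor of myeloid cells, Glipr1, Rap1b and Lsp1. Cybb was most like Npm1, a nucleolar protein gene of all cells (r = 0.962, within groups 0.936), then Vamp8, Ptbp3, Mfap3 and Snw1. Among the subunits themselves r lay between 0.726 and 0.922 over 10 pairs, and for deviations from the group means between -0.14 for Cyba with Ncf4 and 0.852 for Cybb with Rac2.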

How the data were processed

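Total RNA of microdissected adventitia was hybridised to 11 Affymetrix arrays. The authors deposited linear signal intensities per probe set, made with GCOS 1.4 per the submitters' processing notes; the trimmed mean of each array (2% off each end) was 500, and detection calls were not used here. After 64 control probe sets were left out, 22626 remained, of which 20380 had 1 gene symbol in the platform annotation, 691 several and 1555 none.

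Signals under 35.1, which is the 20th percentile over all arrays, were set to that value before log2 was taken. Probe sets with at least 3 arrays above their own 40th percentile (14988) were tested with limma 3.58.1 in R 4.3.3, with a mean per group over all 11 arrays, an intensity trend and Benjamini-Hochberg adjustment at 0.05. The procedure was tested on simulated data. A gene with several probe sets was represented by the brightest. Differences between subunits, and between subunits and macrophage markers, were tested by exact two-sided permutation over arrays. Alternatives were the normalization, floor, filter, groups in the fit, replicate block, array weights, trend, actin covariate and each array left out.

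The subunits, pathway lists and markers were chosen with earlier results of these data known. From each pathway list the 4 called genes with the largest change are named, with Rac1, Nox4, Spi1 and Irf8 in any case, and the 5 genes most like each subunit; the other list genes are named where a count of 5 or fewer called for it or after their values were seen.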

Additional observations from a re-analysis of the deposited data

Results flagged for a closer look

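In groups of 4 arrays, a value was singled out where the gap to its nearest neighbour took up more of the group's range than Dixon's critical value allows. Among 106 groups of 53 probe sets there were 9 such values, where chance gives about 1 in 20, and none belonged to a subunit. In ATLO, replicate 2 stood high for Cyrib at 2942 and for Tnfrsf13b at 1918, and replicate 4 stood low for Apoe at 86.9. Outside the lesion, replicate 2 stood high for Elf1 at 524, Npm1 at 3734 and Pik3cg at 158 and low for Rap1a at 2618, replicate 3 stood low for Prdx4 at 447.8, and replicate 4 stood high for Vav1 at 82.3.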

How the results depend on the processing

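Cyba, Ncf4 and Rac2 stayed called higher in ATLO under all 22 alternatives against both other groups. Ncf1 stayed called under all 21 in which it was tested against outside-lesion adventitia and under 18 of 21 against wild type, and Cybb under 15 of 21 against outside-lesion adventitia and 0 of 21 against wild type. A stricter filter left 3 subunits in the test, and all 3 were called higher in ATLO against both other groups. Of all 12143 probe sets under that filter, 2465 were called higher against outside-lesion adventitia and 1828 against wild type. Leaving out each array in turn gave 4 to 5 subunits called against outside-lesion adventitia, 3 to 4 against wild type, and 0 to 0 between outside-lesion and wild-type adventitia. Uncalled changes of outside-lesion against wild-type adventitia turned in sign for Cybb with the actin covariate (0.25), for Cyba with equal array medians (0.0305), the actin covariate (0.0903), without outside-lesion replicate 3 (0.12) and without wild-type replicate 2 (0.0354), and for Ncf4 with quantile normalization (0.0527), equal medians (0.0297) and without wild-type replicate 2 (0.0767); the cause was not tested. Without one array these changes ranged from -0.33 to 0.12 for Cyba and -0.46 to 0.0767 for Ncf4. Over all probe sets, ATLO against outside-lesion gave 4777 calls, 2552 with the actin covariate and 4003 to 4693 without one array; ATLO against wild type gave 4012 and 2740 to 4241. Outside-lesion against wild type gave 489, and 301 with no filter, 202 with only the compared groups, 189 with the replicate block, 1530 with array weights, 248 with no trend, 86 with the actin covariate and 21 to 886 without one array, the fewest without wild-type replicate 2. Equal array medians moved the median log2 change of all probe sets by -0.12 and 0.17 in these comparisons. They changed the calls of ATLO against outside-lesion adventitia to 1985 higher and 2517 lower, beside 2688 and 2089 as deposited, and those of outside-lesion against wild type to 557 and 81 (quantile normalization 315 and 149), beside 258 and 231. Deviations from the group means of arrays with the same replicate number correlated weakly (r from -0.18 to 0.27, median 0.10, above 0 in 9 of 10 pairs; different numbers -0.20 to 0.24, median -0.04). Of the 10 pairs 5 had r above 0.1, beside 5 of the 30 pairs with different numbers. In each group the lowest actin ratio fell on replicate 2 and the highest on replicate 3. No label ties the numbers to mice, so they were not taken as pairs. With a replicate block 5, 4 and 0 subunits were called in the 3 comparisons. The differences between subunits and those relative to macrophage markers had 0 calls under every floor and with each array left out. Leaving out an array can only keep or raise the smallest p that the permutation allows. With all arrays 18 of 30 and 9 of 15 tests would already have had to reach it. These 0 calls could hardly have come out otherwise and do not show stability. For the macrophage markers these settings were chosen after seeing the data.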
